A study of Mus musculus with 6 samples.

Results

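The library of day 7 after caerulein was compared with the mock library, to see what had and had not returned to the mock level in macrophages of the mouse pancreas. These are 2 of the 6 RNA-seq libraries in the series, and the comparison used the 10000 genes, of 31617 measured, with the highest mean over the 6 libraries, called expressed genes below. Caerulein is a cholecystokinin analogue that, in repeated doses, overstimulates the acinar cells and causes an acute pancreatitis from which the gland recovers. In both groups the mice were wild-type Balb/c, their ages are not given in the labels, and they had 10 hourly intraperitoneal injections, of caerulein in the day 7 mice and of saline, per the design text, in the mock mice, whose label gives no treatment. Other libraries from caerulein-treated mice were made on days 1, 3, 4 and 5 and served here to place the day 7 values in time. Leukocytes were enriched from the pancreas with CD45.2 beads and cells positive for CD45, CD11b and F4/80 were sorted. Each library was a pool of more than 3 mice, so neither group has a replicate, and differences between them have no replicate check.

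Macrophages of the pancreas comprise long-lived resident cells and cells derived from blood monocytes that enter after injury. They take up dead acinar cells, release chemokines and cytokines that draw in neutrophils and monocytes, and later express genes of repair. Many of the early inflammatory genes are targets of NF-kB, a transcription factor held in the cytoplasm by inhibitors such as the product of Nfkbia, which is itself an NF-kB target and closes a feedback loop.

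The deposited values are read counts divided by a size factor for each library and are called normalised read counts below. Day 7 had 16358551 reads and mock had 17598031, against 14853084 to 25726455 in the other libraries, and 3 reads were worth 2.53 normalised counts on day 7 and 2.86 in mock. Log2 ratios of day 7 to mock used a pseudocount of 17.8, which understates the ratios of low genes, and a gene was called higher or lower at 2-fold. Exact 95% Clopper-Pearson intervals of the ratio, computed from reads without the pseudocount, cover counting error only, since reads are not independent molecules, and not the variation between pools of mice. In the sorting genes, day 7 was within 2-fold of mock. Ptprc, which encodes CD45, had 11553 on day 7 and 11870 in mock, Adgre1, which encodes F4/80, had 9671 on day 7 and 11750 in mock, and Itgam, which encodes CD11b, had 1097 on day 7 and 1900 in mock. RNA of other cells was present in both libraries: 26 acinar genes summed to 8.49% of all normalised counts on day 7 and 6.01% in mock. Their summed counts were 1.17e+06 on day 7 and 1.01e+06 in mock. All normalised counts totalled 1.38e+07 on day 7 and 1.68e+07 in mock, so equal counts make a larger share on day 7.

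Most genes were near the mock level on day 7. Of the 10000 expressed genes, 9147 (91.5%) were within 2-fold of mock and 6926 (69.3%) within 1.5-fold. Lower genes outnumbered higher ones: 196 genes (1.96%) were at least 2-fold higher on day 7 and 657 (6.57%) at least 2-fold lower, and past 4-fold there were 9 higher and 72 lower genes. The median log2 ratio of all expressed genes was -0.11, and 0.03 after quantile normalisation, which gave 439 higher and 514 lower genes. With each library centred on its median expressed gene there were 266 higher and 498 lower genes. Across genes, the log2 values of day 7 had a Pearson correlation of 0.937 with mock, against 0.829, 0.839, 0.867 and 0.922 with days 1, 3, 4 and 5, and genes are not independent replicates. The correlations of days 1, 3, 4 and 5 with mock were 0.901, 0.921, 0.913 and 0.915, so that of day 7 was only slightly higher. Relative to mock, 16.3%, 9.44%, 11.4% and 10.1% of genes were past 2-fold on days 1, 3, 4 and 5, and 8.53% on day 7. All these ratios share the single mock library. A count test with edgeR, in which the libraries of days 1, 3, 4 and 5 were taken as 1 group to supply the spread, called 0 of 14106 genes (0%) at an adjusted p under 0.05, with 143 genes at an unadjusted p under 0.05. That spread includes the changes between those days.

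The day 7 ratio moved with transcript length. Genes were split by length into 5 equal groups. In the shortest group, with a median transcript of 1378 bases, the median log2 ratio was -0.56 and 16.9% of genes were at least 2-fold lower on day 7. In the longest group, with a median of 6647 bases, the median was 0.11 and 1.55% were at least 2-fold lower. The shortest group had medians of 0.27, 0.33, 0.13 and -0.07 on days 1, 3, 4 and 5, so it was below the mock level mainly on day 7. After the median ratio of genes of like length was taken off each gene, an adjustment chosen after seeing the data, 283 genes (2.83%) were at least 2-fold higher on day 7 and 336 (3.36%) at least 2-fold lower, among them 155 of the 196 and 303 of the 657. This is called the length-adjusted ratio and is given beside the main lists below. The part of transcript length in the results was not tested.

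**Figure D1:**
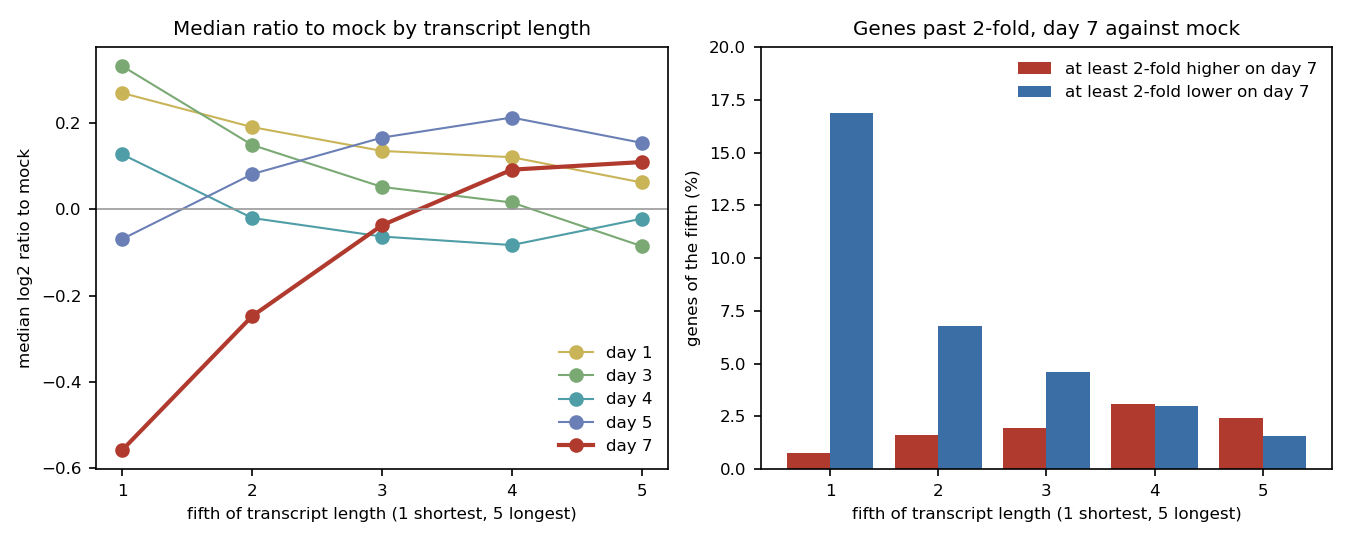
Transcript length and the ratio to mock. Left, the median log2 ratio to mock (y axis) in each of 5 equal groups of expressed genes by transcript length (x axis, shortest first), with 1 line for each day; right, the percentage of genes in each group that were at least 2-fold higher (red) or lower (blue) on day 7 than in mock. On day 7 the medians run between -0.56 in the shortest and 0.11 in the longest group, and lower genes make up 16.9% and 1.55% of those groups.

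The chemokines that attract neutrophils were among the genes farthest below the mock level on day 7. Cxcl1, Cxcl2 and Cxcl3 encode closely related ligands of the neutrophil receptor CXCR2 and lie side by side on mouse chromosome 5, and Nfkbia encodes the inhibitor of NF-kB. These 4 genes were chosen after seeing the data, as genes low on day 7, and a 10-base element was then searched for in their promoters. The sequences are RefSeq's, from GRCm38.p6, and cover the 200 bases before the gene start, 5′ to 3′ on the strand of the gene: chr5:90891045-90891244 on the plus strand for Cxcl1, chr5:90903699-90903898 on the plus strand for Cxcl2, chr5:90785901-90786100 on the plus strand for Cxcl3 and chr12:55492648-55492847 on the minus strand for Nfkbia. Capitals mark matches, on either strand, to the core NF-kB motif, which is GGG, any 5 bases and CC, and overlapping matches run together.
Cxcl1: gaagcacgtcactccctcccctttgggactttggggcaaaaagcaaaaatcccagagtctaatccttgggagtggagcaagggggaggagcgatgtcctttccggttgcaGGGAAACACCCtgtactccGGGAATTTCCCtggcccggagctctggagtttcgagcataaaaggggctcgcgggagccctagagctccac
Cxcl2: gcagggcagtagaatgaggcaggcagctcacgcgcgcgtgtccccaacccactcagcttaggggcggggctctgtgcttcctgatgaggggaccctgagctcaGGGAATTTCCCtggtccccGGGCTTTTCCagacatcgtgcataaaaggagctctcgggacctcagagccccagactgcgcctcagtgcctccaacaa
Cxcl3: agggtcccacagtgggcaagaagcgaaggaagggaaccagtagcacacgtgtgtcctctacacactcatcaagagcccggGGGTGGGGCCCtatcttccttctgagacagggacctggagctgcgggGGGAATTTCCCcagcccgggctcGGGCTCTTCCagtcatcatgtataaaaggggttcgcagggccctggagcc
Nfkbia: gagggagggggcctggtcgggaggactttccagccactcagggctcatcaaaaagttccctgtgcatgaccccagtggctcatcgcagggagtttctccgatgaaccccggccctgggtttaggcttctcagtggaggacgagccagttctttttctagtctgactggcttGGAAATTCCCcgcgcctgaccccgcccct

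The element GGGAATTTCC, or its reverse complement, was found in the 250 bases before the start in 28 of 32851 promoters (0.0852%). It was picked out after seeing the data, as the longest run of bases that the 4 promoters above share on either strand. Of 13 expressed genes with it, 4 were at least 2-fold lower on day 7 and 1 was at least 2-fold higher, Il16, which encodes a T cell attractant. The 4 lower ones were the 4 shown, from which the element was taken, so this count is no support for a link. Il6, also low on day 7, was not among the 13. The 13 genes had a median log2 ratio of -0.16, against -0.10 in 7647 expressed genes with a promoter in the table and without the element. The looser core motif, GGG and CC around any 5 bases on either strand, was present in 45.8% of all promoters, in 7 of 10 promoters of the CXC chemokine list, 3 of 8 of the CC chemokines, 7 of 15 of the inflammatory cytokines, 19 of 21 of the NF-kB subunits and feedback genes, 10 of 24 of the interferon-induced genes and 5 of 9 of the MHC class II genes. A match describes the letters and is not a measured binding site.

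Cxcl1 had 551 normalised counts on day 7, against 13047 in mock, a log2 ratio of -4.52 (interval -4.68 to -4.45). Its values were 3160, 14312, 12283 and 1487 on days 1, 3, 4 and 5, so it was near the mock level on days 3 and 4 and lowest on day 7. Cxcl2 had 5235 on day 7 and 55174 in mock, a log2 ratio of -3.39 (interval -3.44 to -3.36), after 37308, 45018, 53126 and 14614 on days 1, 3, 4 and 5. Cxcl3 had 19.4 on day 7 and 1177 in mock, a log2 ratio of -5.01 (interval -6.58 to -5.33), after 372, 525, 295 and 32.2 on days 1, 3, 4 and 5. All 3 were lower in the day 7 library than in any other. Cxcl10, an attractant of T cells that interferon induces, had 106 on day 7 and 1449 in mock, although its day 1 value was 6276. Of 9 expressed CXC chemokines, 6 were at least 2-fold lower on day 7 and 0 higher, with a median log2 ratio of -2.18 and a length-adjusted median of -1.53. The other lower members were Cxcl13, the attractant of B cells, with 186 on day 7 and 904 in mock, and Pf4, with a log2 ratio of -1.76, while Cxcl16, a membrane-bound chemokine, had 5082 on day 7 and 3327 in mock. Cxcl5, Cxcl9, Cxcl11 and Ppbp were not among the expressed genes, and with no cutoff for expressed genes the list's median was -0.89. In bulk RNA, fewer cells of a type and less RNA per cell cannot be told apart.

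Of 11 expressed CC chemokines, 6 were at least 2-fold lower on day 7 and 1 higher, with a median log2 ratio of -1.58 and a length-adjusted median of -0.83. With no cutoff for expressed genes the list's median was -0.88. Ccl2, which draws monocytes through CCR2, had 2897 on day 7 and 16378 in mock, a log2 ratio of -2.49, and its paralog Ccl7 had 2840 on day 7 and 12681 in mock. Both had peaked on day 1, at 73838 for Ccl2 and 62536 for Ccl7, so their day 7 level lay below both the peak and mock. Ccl4, an attractant of monocytes and T cells, had 5308 on day 7 and 22638 in mock, after values within 2-fold of mock on each earlier day. The exception was Ccl22, a ligand of CCR4 made by alternatively activated macrophages and dendritic cells. It had 578 on day 7, against 138 in mock, a log2 ratio of 1.94 (interval 1.81 to 2.34). The other CCR4 ligand, Ccl17, was below the cutoff for expressed genes, with 56 reads on day 7 and 12 reads in mock.

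Most cytokine genes were lower as well. Of 11 expressed inflammatory cytokines and their antagonists, 8 were at least 2-fold lower on day 7 and 1 higher, with a median log2 ratio of -1.34 and a length-adjusted median of -1.28. Il1a, which encodes interleukin-1 alpha, had 86.2 on day 7 and 2450 in mock, a log2 ratio of -4.57 (interval -5.13 to -4.54). Il6 had 89.5 on day 7 and 716 in mock, and Tnf had 808 on day 7 and 4987 in mock. Il1b, which encodes interleukin-1 beta, kept a higher level, with 4602 on day 7 and 22311 in mock. Inhibitors of the same receptor system were low as well. Il1rn, the secreted receptor antagonist, had 517 on day 7 and 3021 in mock, and Il1r2, a decoy receptor, had 83.6 on day 7 and 1564 in mock. Il10, an anti-inflammatory cytokine, had 50.7 on day 7 and 707 in mock, a log2 ratio of -3.40, although it had stayed within 2-fold of mock on days 1, 3, 4 and 5, at 618, 1364, 611 and 446. Il12b, which encodes a subunit shared by interleukins 12 and 23, was the member above mock, with 118 on day 7 and 30.6 in mock. Below the cutoff for expressed genes, Ifnb1, the gene of interferon beta, had 2 reads on day 7 and 232 reads in mock (interval of the log2 ratio -10.1 to -5.17), and Il23a had 2 reads on day 7 and 66 reads in mock. Csf3, which encodes the neutrophil growth factor G-CSF, had 1 read on day 7 and 258 reads in mock (interval -13.5 to -5.70).

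**Figure D2:**
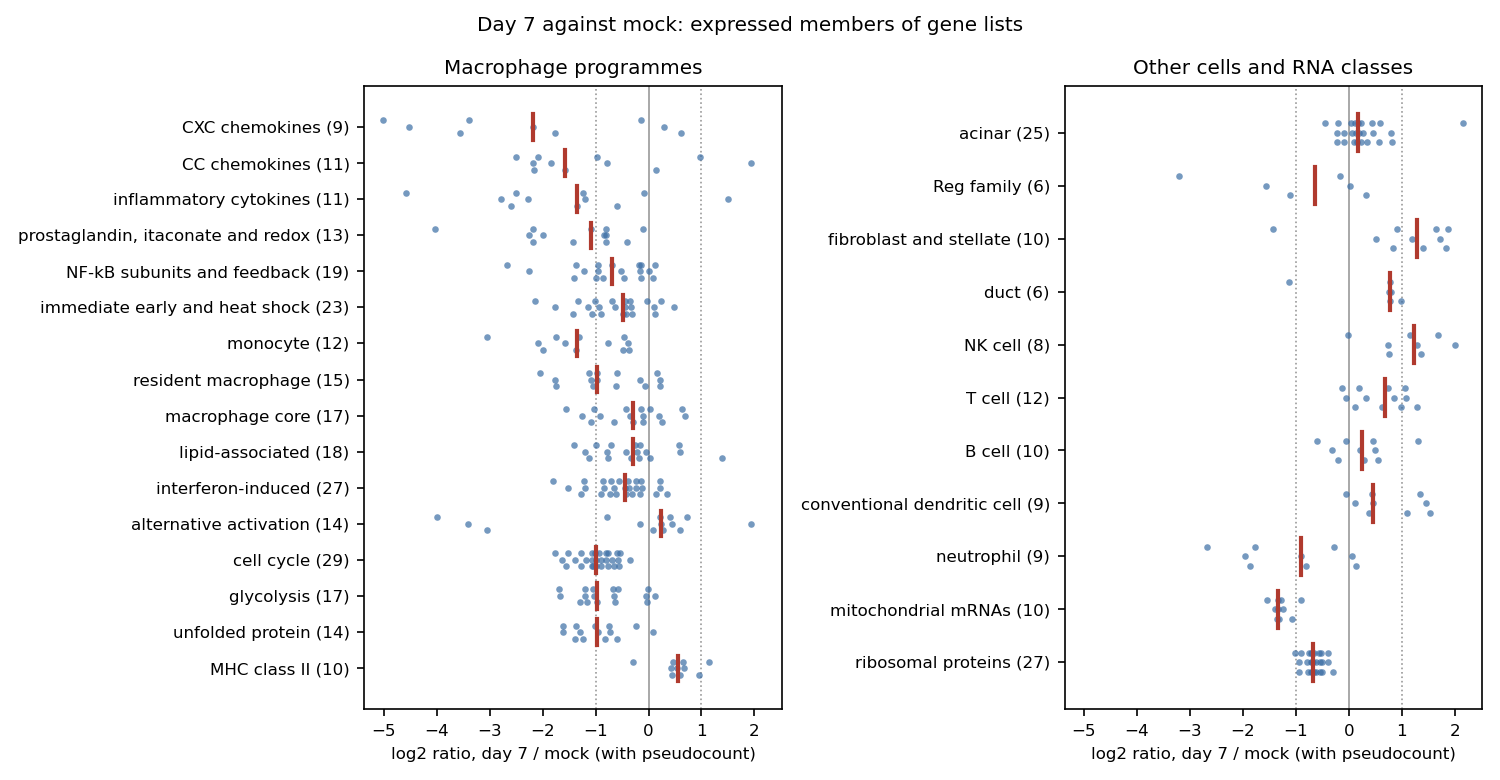
Members of gene lists, day 7 against mock. Each blue point is 1 expressed gene at its log2 ratio of day 7 to mock (x axis, with pseudocount), rows are gene lists with the number of expressed members, the red bar is the list's median and dotted lines mark 2-fold. Chemokine, cytokine and monocyte lists sit mostly left of 0, MHC class II and acinar genes lie close to or right of 0, and NK cell and fibroblast lists lie mostly right of 0.

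Some feedback genes of NF-kB were far below mock. Of 19 expressed genes of the list of NF-kB subunits and feedback, 5 were at least 2-fold lower on day 7 and 0 higher, with a median log2 ratio of -0.69 and a length-adjusted median of -0.54. Nfkbia had 11620 on day 7 and 55201 in mock, a log2 ratio of -2.25, and Ier3, an early response gene, had 2237 on day 7 and 14356 in mock. Each had been within 2-fold of mock on days 1, 3, 4 and 5. Nfkbiz, Nfkbib and Tnip3, which encode further inhibitors or modulators of the pathway, were the other lower members. Among the subunits, Nfkb1, Nfkb2, Rela and Relb had log2 ratios of 0.00, -0.15, -0.14 and 0.09, and Rel had -0.99. Immediate early genes, which respond to tissue handling within minutes, gave a mixed picture. Fos had 86108 on day 7 and 87824 in mock, and Jun had 45953 on day 7 and 32758 in mock, while Atf3 had 9546 on day 7 and 32462 in mock and Nr4a2 had 212 on day 7 and 1003 in mock. Over 23 expressed immediate early and heat shock genes, 7 were at least 2-fold lower and 0 higher, with a median of -0.48, and their part in the chemokine and cytokine values was not tested.

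Several enzymes of inflammatory lipid and metabolite synthesis also lay below mock. Irg1, whose product makes itaconate, had 159 on day 7 and 2867 in mock, a log2 ratio of -4.03 (interval -4.39 to -3.96), and had been 153 on day 5. Ptgs2, the inducible cyclooxygenase, had 601 on day 7 and 2796 in mock, and Ptges, a prostaglandin E synthase, had 66.7 on day 7 and 386 in mock. Slc7a11, the cystine carrier of the redox response, had 51.5 on day 7 and 298 in mock. Of 13 expressed genes of this list, 7 were at least 2-fold lower on day 7 and 0 higher, with a median of -1.08 and a length-adjusted median of -0.82. Clec4e, a receptor for microbial glycolipids and dead cells, had 329 on day 7 and 5386 in mock, and Fosl1, an AP-1 subunit, had 10.1 on day 7 and 307 in mock. Tnfsf9, the ligand of the costimulatory receptor 4-1BB, had 160 on day 7 and 1410 in mock. Among 10 expressed costimulatory genes it was 1 of 3 that were at least 2-fold lower, together with Cd40 and Cd80, at log2 ratios of -1.03 and -1.04, and 0 were higher. The list's median was -0.55. After length adjustment 1 was lower and 1 higher, the median was -0.30 and Cd80 had -0.95.

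Most monocyte genes had not returned to the mock level. Of 12 expressed members, 7 were at least 2-fold lower on day 7 and 0 higher, and all 12 had negative ratios. Of 11 that had been at least 4-fold from mock earlier, 3 were within 1.5-fold of it on day 7, against 302 of all 695 such genes (43.5%). The list had a median of -1.34 and a length-adjusted median of -0.82. The list's median had been 1.59 on day 1, then -1.19, -2.74 and -3.28 on days 3, 4 and 5. Ly6c2, the marker of classical monocytes, had 782 on day 7 and 2671 in mock, after 37117 on day 1 and 106 on day 4, so day 7 lay above the day 4 and 5 values and below mock. Its near-identical neighbour Ly6c1 makes its count uncertain. Chil3, a chitinase-like protein, had 431 on day 7 and 3672 in mock, and Vcan, the proteoglycan versican, had 58.3 on day 7 and 305 in mock. Of 9 expressed neutrophil genes, 4 were at least 2-fold lower, 0 higher and 5 within 2-fold of mock, with S100a8 at 165 on day 7 and 608 in mock and S100a9 at 532 on day 7 and 1972 in mock. The neutrophil list's part in the other values was not tested.

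Resident macrophage genes split. Of 15 expressed, 6 were at least 2-fold lower on day 7 and 0 higher, with a median of -0.97 and a length-adjusted median of -0.59. Lyve1, a hyaluronan receptor, had 1779 on day 7 and 6005 in mock, after 730, 675, 122 and 621 on days 1, 3, 4 and 5, so it stood above each earlier day and below mock. Timd4, a receptor for phosphatidylserine on dead cells, had 1234 on day 7 and 2704 in mock, with a lowest value of 103 on day 3. Cd5l, an inhibitor of macrophage apoptosis, had 369 on day 7 and 1578 in mock, and Cbr2, a carbonyl reductase, had 5663 on day 7 and 19232 in mock. The scavenger receptor Cd163 was close to mock, with 2113 on day 7 and 2356 in mock, as was the mannose receptor Mrc1, with 8772 on day 7 and 7568 in mock. Among 17 core macrophage genes, 4 were at least 2-fold lower (Cd14, Aif1, Lyz2 and Fcgr1) and 0 higher. After length adjustment 1 was at least 2-fold lower, Cd14. The median of -0.29 became 0.07 after quantile normalisation and -0.02 after length adjustment. Csf1r, the receptor for the macrophage growth factor, had 36504 on day 7 and 23532 in mock.

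The median of proliferation genes had been above mock on day 3 and was below it on day 7. Of 29 expressed cell cycle genes, 13 were at least 2-fold lower on day 7 and 0 higher, and all 29 had negative ratios. The list's median was -2.28, 1.44, -1.90 and -1.78 on days 1, 3, 4 and 5, and -0.995 on day 7, with a length-adjusted day 7 median of -0.84. Birc5, the mitotic regulator survivin, had 237 on day 7 and 852 in mock, after 3281 on day 3. Cdk1, the mitotic kinase, had 185 on day 7 and 512 in mock, after 2159 on day 3.

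Part of the genes of glycolysis and of protein folding were also at least 2-fold lower, fewer after the length adjustment. Of 17 glycolysis genes, 8 were at least 2-fold lower and 0 higher, with a median of -0.97, and 2 were past 2-fold after adjustment. Gapdh had 6303 on day 7 and 20035 in mock, and Slc16a3, a lactate exporter, had a log2 ratio of -1.69. Of 14 expressed genes of the unfolded protein response, 7 were at least 2-fold lower and 0 higher, with a median of -0.98 and an adjusted median of -0.58. Hspa5, the chaperone BiP of the endoplasmic reticulum, had 15411 on day 7 and 40443 in mock. Mitochondrial and ribosomal protein mRNAs were measured as signs of RNA quality, and their part in the other results was not tested. Of 10 expressed mitochondrially encoded mRNAs, 9 were at least 2-fold lower, with a median of -1.33, and 0 were past 2-fold after adjustment, where the median was -0.67. Of 27 ribosomal protein genes, 1 was at least 2-fold lower and all 27 had negative ratios, with a median of -0.67 and an adjusted median of -0.13. Actb, which encodes beta-actin, had 73947 on day 7 and 261769 in mock, with a log2 ratio of -1.82 and a length-adjusted one of -1.39.

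Against these, the genes of acinar cells, which lack CD45, had returned. All 25 expressed members had been at least 4-fold from mock earlier, and 22 were within 1.5-fold of mock on day 7. The list's median log2 ratio was -3.52, -2.69, -3.78 and -4.07 on days 1, 3, 4 and 5, and 0.17 on day 7. Pnlip, the pancreatic triglyceride lipase, had 111895 on day 7 and 119710 in mock, after 7811, 5077, 1854 and 2970 on days 1, 3, 4 and 5. Cela1, an elastase, had 93627 on day 7 and 87356 in mock, and Gp2, the main membrane glycoprotein of zymogen granules, had 14330 on day 7 and 13946 in mock. Prss1, a trypsinogen, was the member past 2-fold, with 2439 on day 7 and 534 in mock, although trypsinogen paralogs share sequence and their counts are uncertain. Since acinar transcripts are short, the adjustment moved the list's median to 0.82, with 6 members at least 2-fold higher. Reg genes, secreted lectins of injured acinar cells, were divided. Reg2 had 7593 on day 7 and 8495 in mock, while Reg3g had 186 on day 7 and 1847 in mock and Reg3b had 3300 on day 7 and 9784 in mock.

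**Figure D3:**
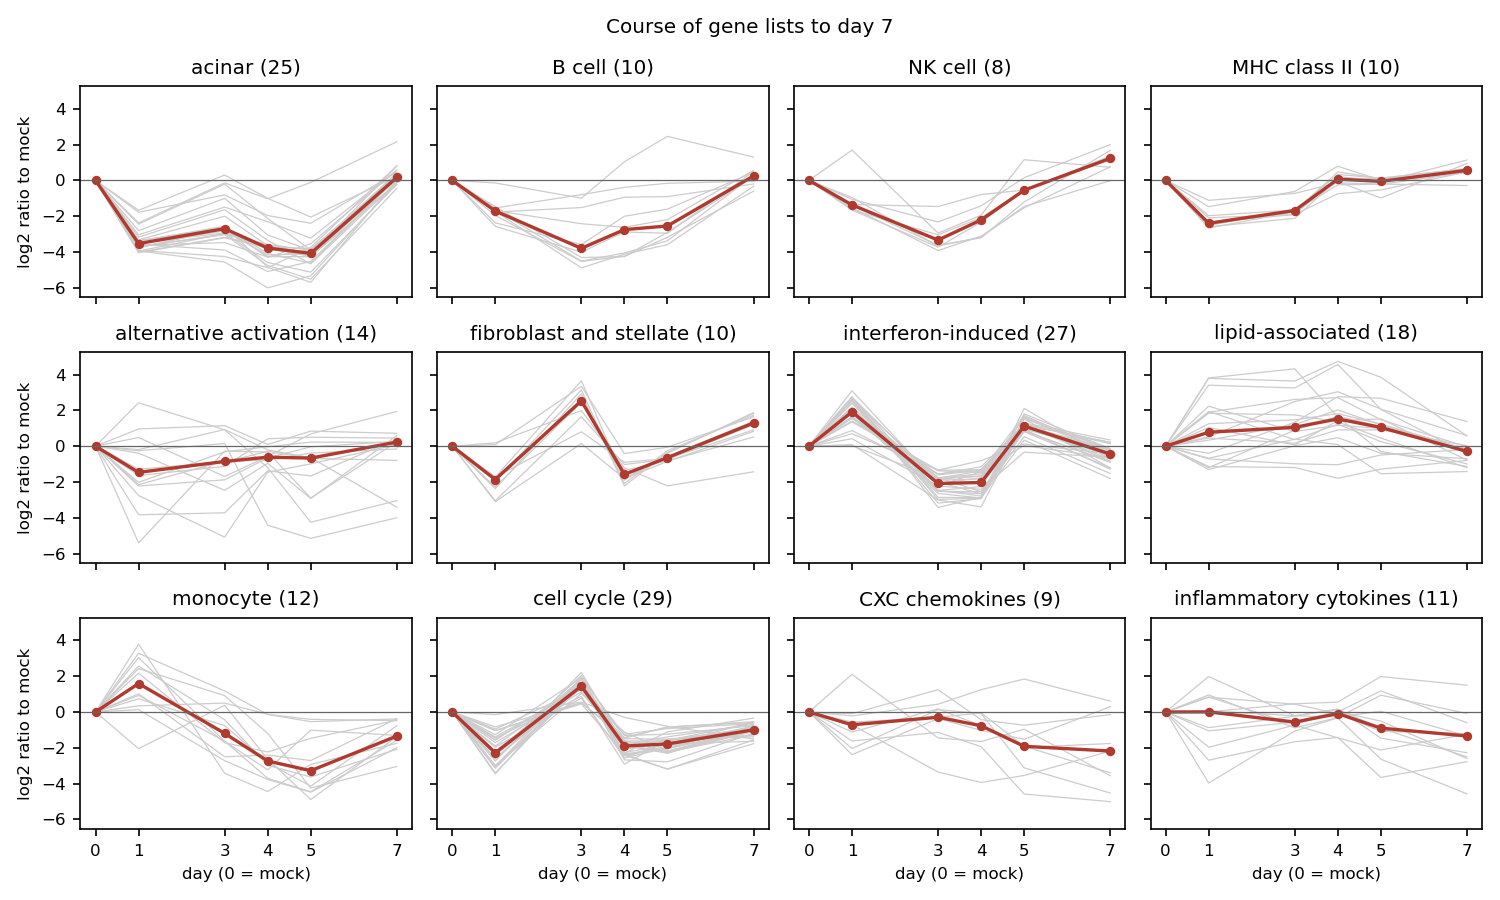
Courses of gene lists to day 7. Each panel shows the log2 ratio to mock (y axis) by day (x axis, day 0 being mock, set at 0), with grey lines for the expressed members and red points for their median. Acinar and B cell medians come back to 0.17 and 0.25 on day 7, MHC class II and NK cell medians end above 0, and monocyte, cell cycle, CXC chemokine and cytokine medians end at -1.34, -0.995, -2.18 and -1.34.

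Several macrophage genes had also come back. Retnla, a marker of alternative activation, had 6402 on day 7 and 6038 in mock, after 881, 162, 2197 and 3041 on days 1, 3, 4 and 5. Alox15, a lipoxygenase of resident peritoneal and alternatively activated macrophages, had 4786 on day 7 and 4039 in mock, after 78.8 on day 1 and 528 on day 5. Arg1, which encodes arginase and is often grouped with them, did not follow: it had 278 on day 7 and 4691 in mock. Its values on days 1, 3, 4 and 5 were 3934, 5194, 203 and 115, so it was within 2-fold of mock on days 1 and 3 and far below it on days 4 and 5. Of 14 expressed genes of alternative activation, 1 was at least 2-fold higher on day 7 (Ccl22) and 3 lower (Arg1, Il10 and Chil3), with a median log2 ratio of 0.23 and a mean of -0.46.

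Lipid-associated and interferon-induced genes were divided. Of 8 lipid-associated genes that had been at least 4-fold from mock earlier, 5 were within 1.5-fold of it on day 7. Of 18 such interferon-induced genes 7 were, while 3 were at least 2-fold from mock on the side of their largest displacement and 2 on the other. Over all 695 such genes, 43.5% were within 1.5-fold, 24.3% on the same side and 8.49% on the other, so a division of this kind was not particular to these lists. Gpnmb, a glycoprotein of lipid-laden macrophages, had 483 on day 7 and 318 in mock, after 4614, 4159, 8911 and 4817 on days 1, 3, 4 and 5. Trem2, a lipid-sensing receptor, had 3135 on day 7 and 2072 in mock, after 17157 on day 4. Spp1, which encodes osteopontin, had 4619 on day 7 and 10118 in mock, after 202196 on day 3. Apoe, the lipoprotein component, was the member of this list at least 2-fold higher, with 577517 on day 7 and 222184 in mock, a log2 ratio of 1.38. Of 18 lipid-associated genes, 1 was at least 2-fold higher and 3 lower, and the median of -0.29 was 0.01 after quantile normalisation. The list summed to 770730 normalised counts (5.58% of all) on day 7 and 454308 (2.70%) in mock. Apoe alone made up 577517 of these on day 7 and 222184 in mock, so the list's share mostly follows this gene. The interferon-induced list had 27 expressed members, 5 of them at least 2-fold lower and 0 higher, with a median of -0.44 after 1.92, -2.08, -2.02 and 1.12 on days 1, 3, 4 and 5. After length adjustment 2 were lower and the day 7 median was -0.42. Over all expressed genes 6.57% were lower, and 3.36% after the adjustment. Irf7, the interferon regulatory factor, had 10833 on day 7 and 11970 in mock. Rsad2, the antiviral enzyme viperin, had 530 on day 7 and 1896 in mock.

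MHC class II genes, which present antigen to T cells, were within 2-fold of mock in 9 of 10 expressed cases. Of the 10, 9 had positive ratios, 1 was at least 2-fold higher and 0 lower, with a median log2 ratio of 0.56 after -2.39, -1.68, 0.07 and -0.05 on days 1, 3, 4 and 5. Ciita, the master regulator of the class, had 1207 on day 7 and 540 in mock, after 80.0 on day 1. Cd74, the invariant chain, had 197319 on day 7 and 124549 in mock, and H2-Ab1, a beta chain, had 24781 on day 7 and 15814 in mock. After length adjustment the median was 0.99 and 5 members were at least 2-fold higher. Markers of dendritic and B cells, which also express the class, were summed beside it: conventional dendritic cell markers made up 0.146% of counts on day 7 and 0.0820% in mock, and B cell markers 0.178% on day 7 and 0.148% in mock. As the day 7 total is smaller, summed counts differ from these shares. B cell markers summed to 24557 on day 7 and 24947 in mock, and dendritic cell markers to 20204 on day 7 and 13783 in mock. Their part in the class II values was not tested.

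**Figure D4:**
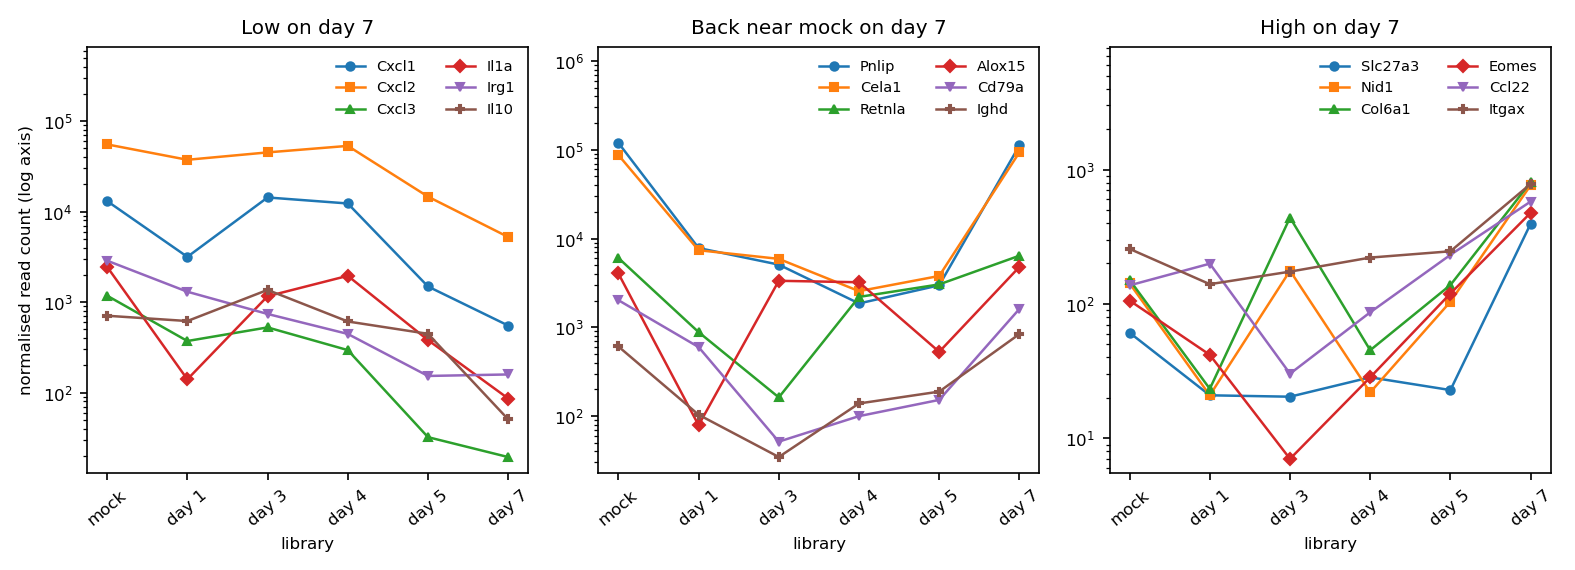
Normalised read counts by library. Points are single libraries (x axis, mock and then days in order) and the y axis is a log axis; the panels show 6 genes that were low, 6 that were near mock and 6 that were high on day 7. Cxcl1 ends at 551 and Cxcl3 at 19.4 on day 7, Pnlip returns to 111895, and Slc27a3 reaches 395 after 20.4 to 28.5 on days 1, 3, 4 and 5.

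Lymphocyte markers were at or above the mock level on day 7 in most cases. Of 8 expressed NK cell genes, 5 were at least 2-fold higher on day 7 and 0 lower, with a median log2 ratio of 1.23 after -1.37, -3.33, -2.21 and -0.55 on days 1, 3, 4 and 5. Eomes, a T-box factor of NK and memory T cells, had 476 on day 7 and 106 in mock, after 7.04 on day 3. Prf1, which encodes perforin, had 1041 on day 7 and 313 in mock, and Ncr1, the NK receptor NKp46, had 1470 on day 7 and 588 in mock. The NK list summed to 0.0681% of counts on day 7 and 0.0269% in mock, and all 10 members had reads in both libraries. Of 12 expressed T cell genes, 3 were at least 2-fold higher (Zap70, Lck and Cd4) and 0 lower, with a median of 0.69. Of 8 displaced at least 4-fold earlier, 5 were within 1.5-fold of mock, against 302 of all 695 such genes (43.5%). The T cell receptor component Cd3e had a log2 ratio of 0.33. Of 10 expressed B cell genes, 1 was at least 2-fold higher, Cd22, and 0 lower, with a median of 0.25 after a lowest median of -3.79 on day 3. Cd79a, a B cell receptor subunit, had 1610 on day 7 and 2020 in mock, after 51.4 on day 3.

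Fibroblast genes were mostly above mock. In the list of fibroblasts and stellate cells, 6 of 10 expressed members were past 2-fold above mock on day 7 and 1 below it (Acta2, the smooth muscle actin), with a median log2 ratio of 1.30 and a length-adjusted median of 1.39. Its 13 members, expressed or not, summed to 0.0770% of counts on day 7 and 0.0270% in mock. All 13 had reads in both libraries, and the part of such cells in the matrix values below was not tested. Col3a1, a fibrillar collagen, had 3443 on day 7 and 959 in mock, after 171, 7376, 191 and 751 on days 1, 3, 4 and 5, so it was high on days 3 and 7. Col1a1 had 721 on day 7 and 183 in mock, after 2512 on day 3. Col6a1 and Col6a2, chains of collagen VI, had log2 ratios of 2.28 and 2.17, with Col6a1 at 804 on day 7 and 151 in mock. The basement membrane linker Nid1 had 764 on day 7 and 142 in mock, after 20.9, 177, 22.0 and 104 on days 1, 3, 4 and 5. Mmp2, a gelatinase, had 648 on day 7 and 124 in mock, and Islr, a marker of mesenchymal cells, had 333 on day 7 and 51.6 in mock. Mmp2 was the member at least 2-fold higher among 16 expressed genes of matrix remodelling, of which 7 were at least 2-fold lower, 8 lay within 2-fold and the median was -0.90. The lowest log2 ratio of the list was -2.67, and the lower members included Mmp9 and Mmp13, at -1.70 and -1.80.

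Dendritic cell markers were higher in part. Of 9 expressed genes of conventional dendritic cells, 4 were at least 2-fold higher and 0 lower, with a median log2 ratio of 0.45. Itgax, which encodes CD11c, had 781 on day 7 and 257 in mock, after 140, 174, 221 and 246 on days 1, 3, 4 and 5. Zbtb46, a transcription factor of the lineage, had 308 on day 7 and 101 in mock, and was also within 2-fold of mock on every earlier day. Flt3, the receptor for the dendritic cell growth factor, had 300 on day 7 and 108 in mock, after 490 on day 4. Xcr1, Irf8 and Batf3, genes of the cross-presenting subset, had log2 ratios of 0.39, 0.44 and -0.05.

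Leaving out predicted genes, small RNAs and pseudogenes, the gene with the highest ratio was Slc27a3, an acyl-CoA synthetase of the fatty acid transport family. It had 395 on day 7 and 61.1 in mock, a log2 ratio of 2.39 (interval 2.31 to 3.09), after 20.9, 20.4, 28.5 and 22.9 on days 1, 3, 4 and 5, so day 7 was above all 5 other libraries. Slc27a1, a fatty acid transporter of the same family, had 907 on day 7 and 204 in mock, but had been at 1151, 1001, 1369 and 1696 on days 1, 3, 4 and 5. Its log2 ratios of 2.40, 2.20, 2.64, 2.95 and 2.06 on days 1, 3, 4, 5 and 7 were past 4-fold on each day. Mest, an imprinted gene, had 198 on day 7 and 32.5 in mock. Axl, a receptor for dead cell uptake, had 6337 on day 7 and 2230 in mock, after 662 on day 3 and 8464 on day 5. C4b, a complement component, had 4772 on day 7 and 1444 in mock, after 156 on day 3.

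Genes were then grouped by whether they had been far from mock before. On a day among 1, 3, 4 and 5, 695 genes (6.95%) were at least 4-fold from mock, taken on the day of their largest displacement. By day 7, 302 of them (43.5%) were within 1.5-fold of mock and 169 (24.3%) were at least 2-fold from it on the same side as on that day. A further 59 (8.49%) were at least 2-fold from it on the other side and 165 lay between. Of 139 genes displaced upward, 61 were back, 25 were at least 2-fold above mock and 19 were at least 2-fold below it. Of 556 displaced downward, 241 were back, 144 were at least 2-fold below mock and 40 were at least 2-fold above it. These groups rest on ratios that share the mock library. Genes on the same side included Slc27a1, Col1a1, Col3a1 and Postn above mock and Cxcl1, Cxcl3, Il1a, Irg1, Arg1, Il1r2, Clec4e and Csf3 below it. The class compares day 7 with 1 early day and does not by itself show a lasting shift. Col3a1 was below mock on days 1, 4 and 5, Cxcl1 was near it on days 3 and 4, and Arg1 was within 2-fold of it on days 1 and 3.

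A further 335 genes (3.35%) were within 2-fold of mock on days 1, 3, 4 and 5 and at least 2-fold from it on day 7, 55 of them higher and 280 lower. The lowest were Il10, Ier3, Il1rn, Rab20, Nfkbia, Ccl4, Plk2 and Actb. Rab20, a small GTPase of phagosomes, had 371 on day 7 and 1892 in mock, and Plk2, a kinase of the polo family, had 2405 on day 7 and 10054 in mock. Among the highest were Mical1, Itgax, Akap12, Rasal3, Foxred2, Angptl2 and Zbtb46. Mical1, a monooxygenase that disassembles actin filaments, had 978 on day 7 and 303 in mock. With length adjustment, 170 genes met this definition.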

How the data were processed

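RNA-seq was made from sorted pancreatic macrophages, 1 library from pooled mice for mock and for each of days 1, 3, 4, 5 and 7, grouped by sample titles. The authors deposited a normalised signal per gene for 31617 genes. Within a tolerance of 0.01, 100% of values in each library were whole multiples of the worth of 1 read, so reads were recovered. The submitters' processing notes name Bowtie 0.12.2 and the build mm8, without a role. Gene counter, annotation and strand: not given in the sources used here. Counts of near-identical genes are therefore uncertain. Gene coordinates other than RefSeq promoters are not used here. Of the identifiers, 31431 (99.4%) were in the gene name table.

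Ranked by mean over 6 libraries, the top 10000 genes counted as expressed (lowest mean 74.1), with no other filter. The pseudocount of 17.8 was set from the mean column total. Transcript lengths were those of the longest GENCODE transcript, in 50 bins, for 9991 genes. Tools were edgeR 4.0.16 in R 4.3.3, and pandas 2.3.3, numpy 2.4.6, matplotlib 3.10.9 and scipy 1.17.1 in Python 3.11.15, and the calculations were tested on simulated data. The edgeR test used reads of genes with at least 60 over the 6 libraries. Counting intervals of named genes reached 0.145 to either side at the median on the log2 scale, and 3.90 at the widest, for Csf3.

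The comparison, the 42 gene lists (559 genes) and the naming rule were chosen with earlier results of these data known. Named were the 12 highest and 12 lowest ratios, leaving out predicted genes, small RNAs, pseudogenes and receptor segments. Each list added at most 5 members, those of largest absolute ratio, and others were the sorting genes, the 10 farthest displaced genes that were back, and the 8 highest and 8 lowest of the genes still displaced and of the late changes. Other genes in the text, such as Il12b, Ifnb1, Il23a, Ccl17, Fos, Jun, Gpnmb, Trem2, Csf1r, Mrc1, Cd163, Irf7 and the NF-kB subunits, were chosen after their values were seen. Some genes selected this way are not reported here. Alternatives were other pseudocounts, scalings and filters, leaving out genes of other cells, and the length adjustment.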

Additional observations from a re-analysis of the deposited data

How the results depend on the processing

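Each count was recomputed under other pseudocounts, scalings and filters, without acinar, Reg, erythroid and mitochondrial genes, and with the length adjustment and edgeR test, both added after seeing the data. No named gene past 2-fold changed direction under any alternative. Of 148 named genes past 2-fold, 138 stayed past it with 4 times the pseudocount, 142 with median centring, 127 with quantile normalisation and 119 with length adjustment. The 196 genes higher on day 7 became 96 with 4 times the pseudocount, 439 with quantile normalisation, 58 among the 6000 highest genes and 415 with no filter. The 657 lower genes became 336 with length adjustment. Among the calls, higher genes made up 23.0%, and 34.8% with median centring, 46.1% with quantile normalisation, 10.9% among the 6000 highest genes, where 472 were lower, 34.9% with no filter, where 775 were lower, and 45.7% with length adjustment. With 4 times the pseudocount, 180 displaced genes were back, 87 were on the same side and 27 on the other side. Among the 6000 highest genes these counts were 149, 89 and 28. Length adjustment gave 89 on the other side and 170 late changes, against 335. Of 8 lists with a median at least 2-fold from mock, 4 kept this after length adjustment (inflammatory cytokines, CXC chemokines, fibroblast and NK cell genes). With duct genes, whose unadjusted median was under 2-fold, 5 lists met it then. With no filter 5 of the 8 kept it, and the medians of CXC chemokines, CC chemokines and prostaglandin, itaconate and redox genes were -0.89, -0.88 and -0.85. Among the 6000 highest genes, and with quantile normalisation, 6 of the 8 kept it. The causes were not tested beyond what fewer genes or a larger pseudocount does by construction. Quantile normalisation turned the sign of 6 list medians (sorting, core macrophage, lipid-associated, colony-stimulating factor, complement and plasma cell genes) and length adjustment that of 4, none of them past 2-fold. The signs of 3 turned among the 6000 highest genes (growth factor, B cell and eosinophil genes), of 2 with no filter (endothelial and eosinophil genes) and of 1 with median centring (complement genes). Means and medians had opposite signs in 4 lists: alternative activation, growth factors, endothelial and plasmacytoid dendritic cell genes. Leaving out a replicate could not be done with 1 library a group. No paired analysis was possible because each group has 1 library. Depth limits low genes: 3 reads were worth 2.53 normalised counts on day 7 and 2.86 in mock.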

Other observations

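Growth factor genes were divided. Areg and Hbegf, which encode ligands of the epidermal growth factor receptor, had 22.8 and 67.6 normalised counts on day 7, against 233 and 487 in mock, and Vegfa, the endothelial growth factor, had 183 on day 7 and 743 in mock. Pdgfc, a platelet-derived growth factor that acts on mesenchymal cells, had 215 on day 7 and 93.6 in mock. Over the 13 expressed members 1 was at least 2-fold higher and 3 lower, with a median log2 ratio of 0.14 and a mean of -0.39.

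In iron handling, 2 of 10 expressed genes were at least 2-fold lower, Lcn2 and Hmox1, at log2 ratios of -1.96 and -1.43, while the iron exporter Slc40a1 had 0.33. Among 10 expressed complement genes, 1 was at least 2-fold higher (C4b) and 1 lower (C5ar1, the receptor for C5a), and the median of -0.07 was 0.28 after quantile normalisation. Among 13 expressed genes of dead cell uptake, 1 was at least 2-fold higher (Axl) and 1 lower (Timd4), with a median of 0.05. After length adjustment the complement and dead cell uptake lists each had 0 lower members. With 1.96% of all expressed genes higher and 6.57% lower, 1 member does not set such a short list apart. Of 5 expressed colony-stimulating factor genes, 1 was lower, Csf3, and the median of -0.20 was 0.28 after quantile normalisation.

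Among markers of other cells, 5 of 6 expressed duct genes lay between 0.76 and 0.98 on the log2 scale and the sixth was Spp1, with a median of 0.78. Of 6 expressed Reg genes 3 were at least 2-fold lower, with a median of -0.63. Of 5 expressed endothelial genes 1 was lower (Plvap) and the median was 0.18, and of 6 expressed plasmacytoid dendritic cell genes 1 was lower (Bst2, also induced by interferon) and the median was 0.14. With 6.57% of all expressed genes lower, 1 member does not set such a short list apart. Plasma cell, eosinophil and erythroid genes had no member past 2-fold among 6, 4 and 4 expressed, with medians of -0.11, 0.44 and -0.23. The plasma cell median was 0.12 after quantile normalisation. Gcg, the glucagon gene, was the 1 expressed islet gene, with a log2 ratio of -2.53, and Hdc, the histidine decarboxylase of mast cells and basophils, the 1 expressed gene of its list, with -2.05.

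The AP-1 motif TGANTCA was present in 6.75% of all promoters and the interferon-response motif, GAAA and GAAA around any 2 bases, in 2.98%, both searched on both strands in the same 250 bases. The interferon-response motif was found in 11 of 24 promoters of interferon-induced genes and the AP-1 motif in 5 of 24. The AP-1 motif was in 4 of 15 promoters of inflammatory cytokines, 2 of 10 of CXC chemokines, 1 of 8 of CC chemokines, 3 of 21 of NF-kB subunits and feedback genes and 2 of 9 of MHC class II genes. The day 7 ratio also moved with GC content, with medians of -0.24 and 0.10 in the lowest and highest of 5 equal groups. It moved with the mean level over the 6 libraries too. In the highest of 5 equal groups the median was -0.41, with 13.9% of genes at least 2-fold lower and 0.6% higher. In the lowest group the median was 0.08, with 4.9% lower and 4.4% higher. The part of GC content and of level in the results was not tested.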
